A study of Homo sapiens with 4 samples.

Results

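The translation initiation factors are the proteins that bring the ribosome to an mRNA and set it on the start codon. Their genes were taken here as every probe set annotated with exactly 1 gene symbol that begins with EIF followed by a digit from 1 to 6. This gave 131 of 54613 probe sets and 53 of 19775 genes. Among these genes are 4 noncoding ones that carry the symbol of an initiation factor gene. Of the 53 genes, 49 had at least 1 probe set above the filter on dim signal, and 113 of the 131 probe sets passed it. Symbols set the members and no difference entered that rule, though earlier results of these data were known when it was chosen. RNA came from the KYSE410 cell line, derived from a human squamous cell carcinoma of the esophagus, either left untreated (2 arrays) or given 20 nM YM155 for 6 h (2 arrays). YM155 is a compound known for lowering survivin, an inhibitor of apoptosis. The cells of both groups grew in the same serum-containing medium, and the labels name no transgene, clone or culture day. The labels' treatment protocol names cisplatin instead; YM155 was followed here because every other label that gives a treatment, and the title of the series, names it. The titles of the YM155 arrays also carry the marks B1 and B2, which no label explains, and no label states that the arrays of a group came from separate cultures, so p-values rest only on how far these arrays lie apart, and that spread may be technical.

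In textbook outline, eIF2 carries the initiator tRNA to the small ribosomal subunit, eIF1 and eIF1A keep the complex open while it scans, and eIF3 is the large scaffold that ties these parts together. The cap-binding protein eIF4E, the scaffold eIF4G and the helicase eIF4A recruit the mRNA. Cells slow initiation in 2 main ways: the EIF2AK kinases phosphorylate eIF2, which then blocks its exchange factor eIF2B, and the 4E-binding proteins, released when mTORC1 is inactive, take eIF4E away from eIF4G. Both controls act on proteins, which the arrays did not measure.

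Shown next are sequences upstream of 3 members picked by their differences. They are EIF3J with its divergent noncoding partner EIF3J-DT, the lowest member, EIF1AX, higher in all its probe sets, and EIF4B, the lowest protein-coding member. Any part of these sequences in the differences was not tested. They come from RefSeq's promoter table (GRCh38.p14), which held 39 of the 47 protein-coding members that were tested. EIF3J is read from the plus strand and EIF3J-DT from the minus strand of chromosome 15, with annotated starts 224 bases apart, and the first sequence is all that lies between those starts (chr15:44536924-44537146, written along the plus strand). The second is the 250 bases before the EIF1AX start (chrX:20141839-20142088, minus strand), and the third the 250 bases before the EIF4B start (chr12:53006206-53006455, plus strand). Capitals mark the GC box GGGCGG, or CCGCCC on the other strand, to which SP1 binds, and in EIF4B also the E-box CACGTG, a site of MYC and MAX.
EIF3J: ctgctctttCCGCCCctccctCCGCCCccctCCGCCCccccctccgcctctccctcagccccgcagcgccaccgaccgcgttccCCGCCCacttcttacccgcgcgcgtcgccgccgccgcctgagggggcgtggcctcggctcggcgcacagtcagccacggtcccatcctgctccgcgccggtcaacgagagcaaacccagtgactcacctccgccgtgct
EIF1AX: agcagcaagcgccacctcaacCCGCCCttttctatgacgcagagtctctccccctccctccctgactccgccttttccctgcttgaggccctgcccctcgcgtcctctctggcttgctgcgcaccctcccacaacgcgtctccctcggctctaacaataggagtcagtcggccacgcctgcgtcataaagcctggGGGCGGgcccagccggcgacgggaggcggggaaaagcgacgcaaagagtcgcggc
EIF4B: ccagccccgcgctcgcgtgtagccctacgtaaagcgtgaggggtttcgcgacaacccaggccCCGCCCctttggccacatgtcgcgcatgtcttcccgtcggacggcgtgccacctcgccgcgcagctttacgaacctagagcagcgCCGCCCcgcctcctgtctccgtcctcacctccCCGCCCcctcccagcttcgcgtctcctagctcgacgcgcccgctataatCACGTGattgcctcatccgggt

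The 4 arrays were not equally alike. Of 32768 probe sets that passed the filter, 56 differed at least 2-fold between the YM155 arrays and 1690 between the untreated arrays. Untreated replicate 1 was this far from YM155 replicates 1 and 2 at 739 and 850 probe sets, fewer than from the other untreated array, and untreated replicate 2 at 1811 and 2140. Untreated replicate 2 was thus the array that stood apart. Every difference against untreated therefore rests on a pair of arrays that differed from each other, and the value against each untreated array is given where it matters. The labelled cell type was checked against markers. Of the squamous list, KRT5, KRT14, DSG3, SFN, EPCAM and CDH1 were measured, and 6 of 6 were above the filter. EPCAM and CDH1 are not particular to squamous cells, and KRT6A and TP63, also listed, had no value. The summed linear intensity of the 6 was 11558 to 12756 in untreated and 16664 to 16701 in YM155 arrays. SFN was the brightest, at 12.25 and 12.74 log2 untreated, and 13.15 and 13.19 under YM155. EPCAM overlapped, at 11.29 and 11.14 against 11.28 and 11.31. Of the markers of other cell types, 2 of 5 for fibroblasts, 1 of 3 for leukocytes, 2 of 3 for endothelium and 2 of 3 for glandular cells were above the filter. The summed intensity of the fibroblast markers was 99.2 to 111 in untreated and 98.7 to 112 in YM155 arrays, and each of the other 3 sums lay between 27.4 and 45.2 with overlap of the groups. PTPRC, LYZ, COL1A2, COL3A1, LUM, CDH5 and MUC2 lay below the limit. The part of these levels in the results was not tested.

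Member transcripts, each read in the brightest probe set of its gene, differed little between untreated and YM155 arrays (dimmer probe sets are described below). The 49 tested members were 47 protein-coding genes and 2 noncoding ones. None of the 49, 0 in either direction, reached an adjusted p of 0.05 in limma (background 0% of 14043 genes). The lowest value was 0.203, that of the noncoding EIF3J-DT, and among the protein-coding members it was 0.241. The unadjusted p was under 0.05 for 2 members, EIF1AX higher and EIF3J-DT lower, against 12.7% of all genes (5.23% higher, 7.48% lower). The median difference, YM155 minus untreated, was 0.014 log2 over the 49 genes and −0.015 over all 14043. Their median absolute difference was 0.15, and that of all genes was 0.17. A difference of at least 1.5-fold was seen for 3 of the 49 genes (EIF3C, EIF1AX and EIF3J-DT) and for 9.13% of all genes. These sizes were not compared at equal signal, and many members were bright. The 5th to 95th percentile of all probe sets ran from −0.70 to 0.62 in the bin that starts at 6 log2. In the bin that starts at 11 log2 it ran from −0.26 to 0.38. Both YM155 arrays lay above both untreated arrays for 10 members and below them for 10, together 40.8%, where the share over all genes was 44.9% (19.3% higher, 25.6% lower). These shares lie near or below the background, and nothing particular to the initiation factors can be read from them.

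**Figure D1:**
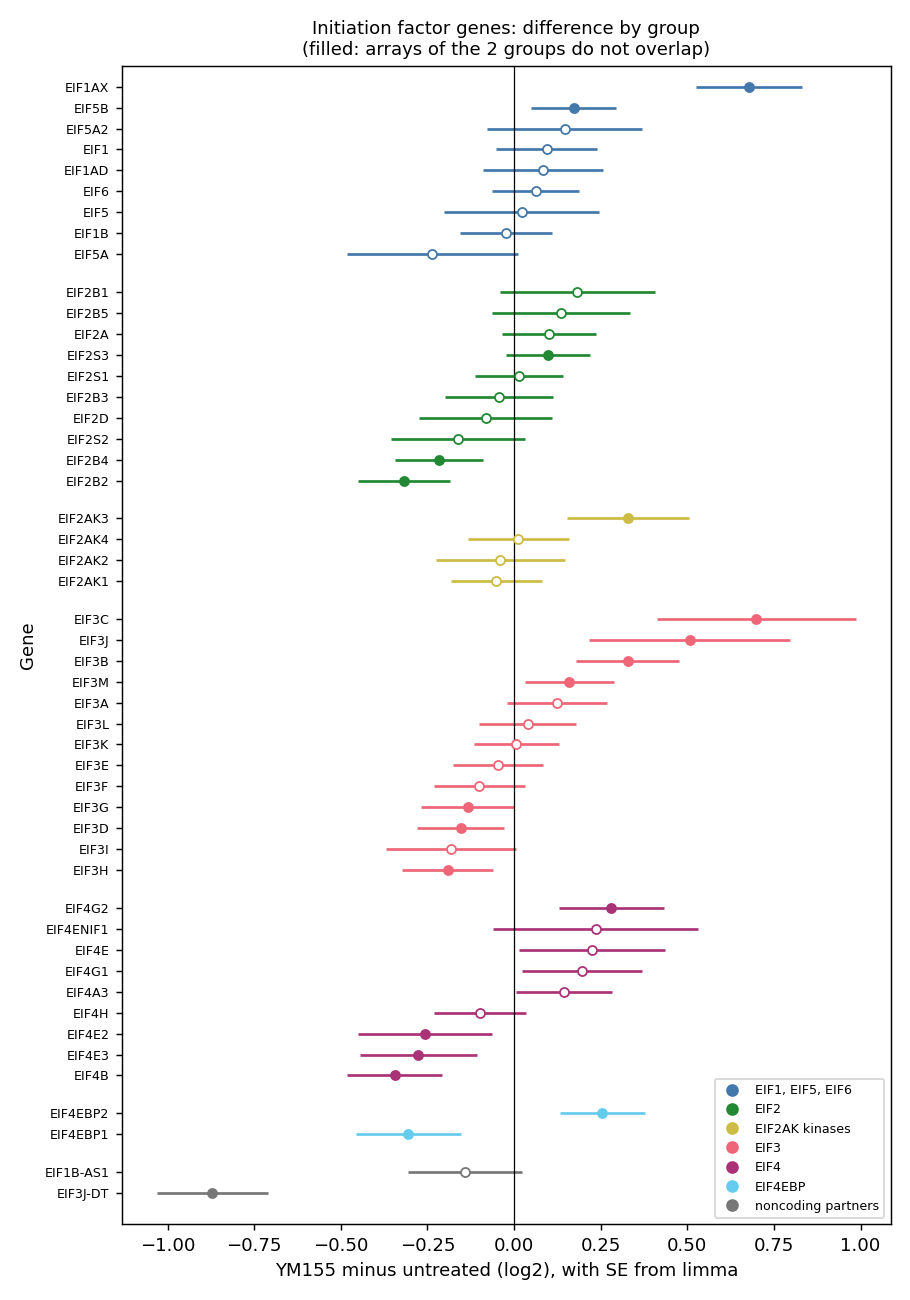
Difference (YM155 minus untreated, log2, x axis) of each initiation factor gene (y axis) with its SE from limma, n = 2 arrays per group; colours give the group, and filled points are genes whose arrays do not overlap. All points lie within 0.35 log2 of 0 except EIF1AX, EIF3C and EIF3J to the right and EIF3J-DT to the left.

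Among the factors of scanning and subunit joining, EIF1AX stood apart. Its gene encodes eIF1A, which works with eIF1 in start codon selection. EIF1AX read 9.20 and 9.41 log2 in untreated replicates 1 and 2, and 9.88 and 10.08 in YM155 replicates 1 and 2. The groups did not overlap, with a mean difference of 0.68 ± 0.15 log2 (SE, n = 2 per group; limma adjusted p = 0.241), a 1.60-fold difference. With each array left out in turn it stayed between 0.58 and 0.78. All 4 of its probe sets were higher without overlap, but by unequal amounts: 0.87, 0.68, 0.35 and 0.11. The smallest belongs to the brightest probe set without an _s_at or _x_at suffix, marks of probe sets that can match several transcripts, so a fit restricted to such probe sets gave 0.11.

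The other genes of this group had small differences in their brightest probe sets. EIF1, whose product guards against initiation at wrong codons, read 13.13 and 12.88 untreated, and 13.12 and 13.08 under YM155, with overlap. Its paralog EIF1B differed by −0.023 ± 0.13 (SE). EIF5, the factor that triggers GTP hydrolysis by eIF2, differed by 0.022 ± 0.22, and its untreated arrays lay far apart at 11.02 and 10.46. The dimmest EIF5 probe set was higher without overlap by 0.58 ± 0.23, and the others lay between −0.083 and 0.20 with overlap. EIF5B, which joins the large subunit, was higher without overlap by 0.17 ± 0.12 (adjusted p = 0.636). EIF5A, the hypusine-bearing factor that also helps elongation, read 11.40 and 11.33 untreated, and 11.46 and 10.80 under YM155. The groups overlapped, and only YM155 replicate 2 was low: without it the difference of −0.24 turned to 0.092. The dimmer EIF5A probe sets gave 0.020 with overlap and 0.027 without, so the −0.24 was seen in the brightest one only. EIF6, which keeps free large subunits apart, differed by 0.063, EIF1AD by 0.083 and EIF5A2 by 0.15, all with overlap. A dimmer EIF5A2 probe set was higher without overlap, by 0.44 ± 0.22. EIF1AY, on the Y chromosome, is a member given without a level. The median over the 9 genes tested was 0.083, with 7 positive and 2 negative.

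The eIF2 subunits were close to flat in their brightest probe sets. EIF2S1, the gene of the alpha subunit that the kinases phosphorylate, read 10.97 and 10.98 untreated, and 11.05 and 10.94 under YM155, a difference of 0.014 ± 0.13 (SE). Its other 2 probe sets did not follow. One read 8.34 and 8.36 untreated, and 8.69 and 8.82 under YM155, and the other 7.78 and 7.74 against 8.17 and 8.19. Both were higher without overlap, by 0.40 and 0.42 (unadjusted p = 0.0339 and 0.0257, limma adjusted p = 0.415 and 0.397 over all probe sets). EIF2S3, the GTP-binding gamma subunit, was higher without overlap in its brightest probe set, by only 0.098 ± 0.12, and its others gave −0.039 and −0.38. EIF2S2, the beta subunit, differed by −0.16 ± 0.19 and its arrays overlapped.

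The 5 subunits of eIF2B, the exchange factor that recharges eIF2 with GTP, differed in sign among themselves. EIF2B2 read 9.92 and 10.00 untreated, and 9.72 and 9.58 under YM155, lower without overlap by 0.32 on the log2 scale (SE 0.13, adjusted p = 0.426). EIF2B4 was lower without overlap in both of its probe sets, which differed by −0.22 and −0.17. EIF2B1 (0.18 ± 0.22), EIF2B5 (0.14 ± 0.20) and EIF2B3 (−0.044 ± 0.16) overlapped. The alternative initiator tRNA factors EIF2A (0.10) and EIF2D (−0.082) overlapped as well. Over the 10 genes named EIF2 other than the kinases, 5 were positive and 5 negative, and the median was −0.015. It was −0.11 against untreated replicate 1 and 0.073 against untreated replicate 2.

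Of the 4 eIF2 kinases, only EIF2AK3 had no overlap in its brightest probe set, where 44.9% of all genes had none. EIF2AK3 encodes PERK, the kinase of endoplasmic reticulum stress, and read 6.82 and 7.17 untreated, and 7.24 and 7.41 under YM155. It was higher by 0.33 ± 0.18 log2 (SE; limma adjusted p = 0.522), but only 0.15 of that remained against untreated replicate 2, where replicate 1 gave 0.51. EIF2AK1, the heme-regulated kinase HRI, read 10.39 and 10.27 untreated, and 10.32 and 10.23 under YM155. EIF2AK2, the double-stranded RNA kinase PKR, read 9.06 and 9.35 against 9.01 and 9.32. EIF2AK4, the amino acid sensor GCN2, read 6.55 and 6.39 against 6.39 and 6.58. The differences of these 3 kinases, −0.051, −0.039 and 0.012, were smaller than the gaps between their replicate arrays. Their signs turned when single arrays were left out. A dimmer EIF2AK2 probe set was higher without overlap, but by only 0.058 ± 0.13 (SE).

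**Figure D2:**
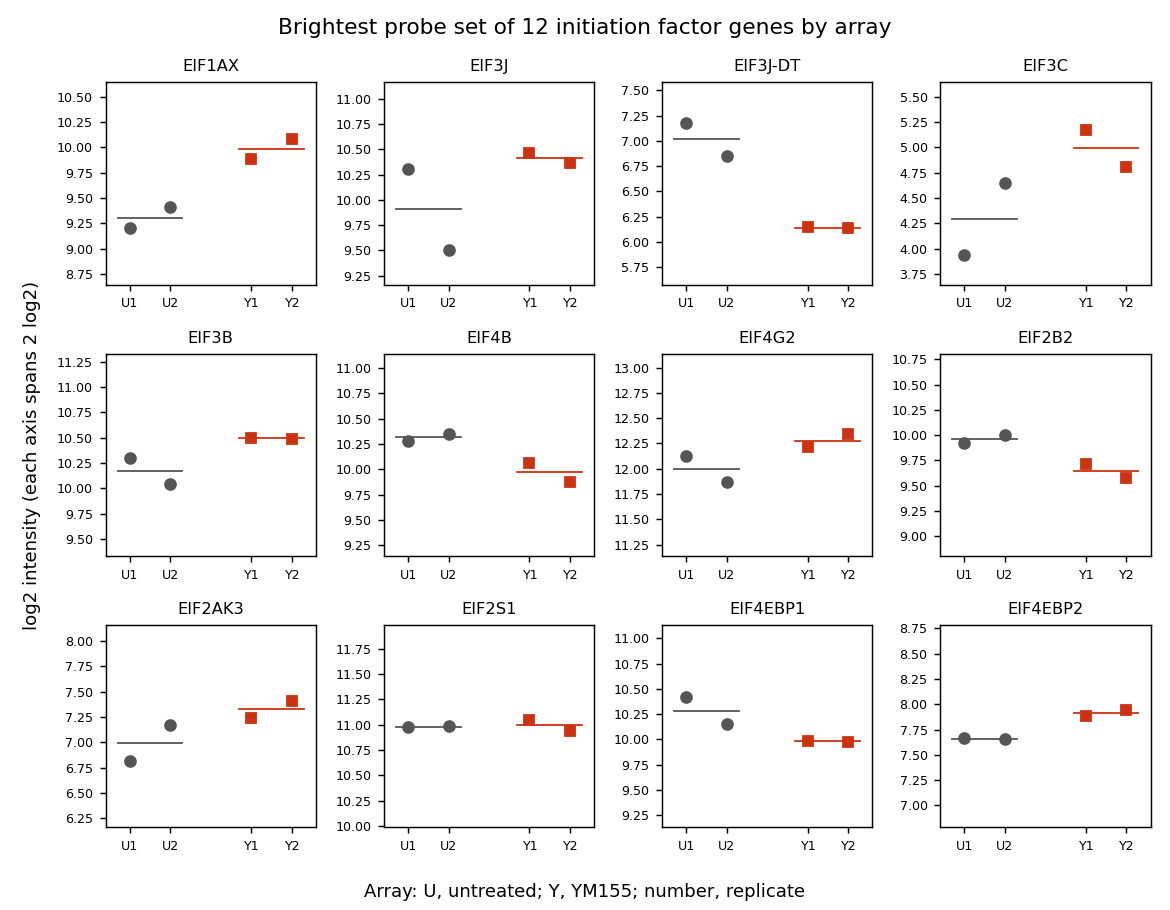
Log2 intensity of the brightest probe set of 12 initiation factor genes on each array (U, untreated, grey circles; Y, YM155, red squares; lines are group means of 2 arrays; every axis spans 2 log2). In EIF1AX, EIF3J-DT, EIF4B, EIF2B2 and EIF4EBP2 the gap between the groups is wider than either pair's spread, and it is widest in EIF1AX and EIF3J-DT. EIF3J lies far from untreated replicate 2 only, and EIF2S1 is flat.

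Most subunits of the eIF3 scaffold differed little. Leaving out EIF3C and EIF3J, which are described next, the remaining 11 subunits had differences between −0.19 and 0.33, 5 positive and 6 negative, with a median of −0.047. EIF3B, a core subunit of the complex, read 10.30 and 10.04 untreated, and 10.50 and 10.49 under YM155. It was higher without overlap by 0.33 ± 0.15 (SE; adjusted p = 0.457), by 0.20 and 0.46 against untreated replicates 1 and 2, and 5 of its 6 probe sets had positive differences. EIF3H (−0.19 ± 0.13), EIF3D, a subunit that can itself bind the cap (−0.15 ± 0.13), and EIF3G (−0.13 ± 0.14) were lower without overlap, and EIF3M (0.16 ± 0.13) was higher. EIF3A (0.12), EIF3L (0.039), EIF3K (0.0060), EIF3E (−0.047), EIF3F (−0.10) and EIF3I (−0.18) overlapped. EIF3K lay closest to 0: it read 11.85 on both untreated arrays and 11.82 and 11.88 on the YM155 arrays. Over all 13 genes the median was 0.0060.

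EIF3J and EIF3J-DT, the divergent pair whose shared upstream stretch is shown above, lay on opposite sides of 0. EIF3J, a loosely bound subunit that acts in start codon recognition and ribosome recycling, read 10.31 and 9.51 untreated, and 10.47 and 10.37 under YM155. The YM155 arrays were higher without overlap by 0.51 ± 0.29 (SE; limma adjusted p = 0.55), which was 0.11 against untreated replicate 1 and 0.91 against untreated replicate 2. Its second probe set read 8.04 and 7.27 against 8.53 and 8.44, a difference of 0.84 (unadjusted p = 0.035, adjusted p = 0.418), which was 0.45 against untreated replicate 1 and 1.22 against replicate 2. EIF3J-DT, a long noncoding RNA, read 7.17 and 6.85 untreated, and 6.15 and 6.14 under YM155. It was lower without overlap by 0.87 on the log2 scale, 1.83-fold (SE 0.16, adjusted p = 0.203), and by 1.03 and 0.71 against untreated replicates 1 and 2. Without untreated replicate 1, limma called exactly these 2 of the 49 genes, EIF3J at 0.91 (adjusted p = 0.0441) and EIF3J-DT at −0.71 (adjusted p = 0.0492), against 8.01% of all genes. Both calls rest on untreated replicate 2, the array that stood apart, as the only untreated array. In that fit the lone array was assumed to vary like the YM155 arrays, and leaving out any other array called 0 members.

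A noncoding neighbour is also annotated beside EIF1B and EIF2AK3. EIF1B and EIF1B-AS1, whose annotated starts lie 9 bases apart on chromosome 3, differed by −0.023 and −0.14 ± 0.16 (SE), both with overlap in their brightest probe sets. Dimmer EIF1B-AS1 probe sets gave −0.23 ± 0.13 without overlap (4.77 and 4.80 untreated, and 4.51 and 4.61 under YM155) and −0.085 with overlap. EIF2AK3 and EIF2AK3-DT start 365 bases apart on chromosome 2. EIF2AK3-DT was below the filter, at 2.72 and 2.87 untreated, and 2.43 and 2.38 under YM155, a signal not shown to exceed background. Its difference was −0.39 without overlap, on the opposite side of 0 from EIF2AK3. EIF2AK3-AS1 was below the filter as well.

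For EIF3C the values depend on which probe set is read. The single probe set annotated with EIF3C alone was dim, at 3.94 and 4.65 untreated, and 5.17 and 4.81 under YM155, and higher without overlap by 0.70 ± 0.29 (SE; adjusted p = 0.421). It was 1.05 higher against untreated replicate 1 and 0.34 higher against untreated replicate 2. Bright probe sets annotated with EIF3C together with its near-identical copy EIF3CL name neither gene. Those 3 gave −0.038, −0.040 and −0.049, and the brightest read 12.27 and 12.00 untreated, and 12.13 and 12.04 under YM155. The 1.62-fold difference of the dim probe set was thus not seen in the bright ones.

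In the cap-binding group, members went both ways. EIF4B, the cofactor that stimulates the helicase eIF4A, read 10.28 and 10.35 untreated, and 10.06 and 9.88 under YM155. It was lower without overlap by 0.34 on the log2 scale (SE 0.14, adjusted p = 0.409), and its other 2 probe sets were lower without overlap too, at −0.27 and −0.14. EIF4G2, a scaffold relative that does not bind eIF4E, read 12.12 and 11.87 untreated, and 12.21 and 12.34 under YM155, higher without overlap by 0.28 ± 0.15 (adjusted p = 0.528), with 0.15 and 0.41 against untreated replicates 1 and 2. EIF4G1, the main scaffold, read 9.44 and 9.61 against 9.89 and 9.55 and overlapped (0.20 ± 0.17). EIF4E, the cap-binding protein itself, read 7.87 and 8.31 against 8.46 and 8.17 and overlapped (0.22 ± 0.21). The difference was 0.44 to untreated replicate 1 and 0.0060 to replicate 2.

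Among the cap-binding relatives, EIF4E2, whose product represses translation, read 9.25 and 9.71 untreated, and 9.21 and 9.24 under YM155, lower without overlap by 0.26 on the log2 scale (SE 0.19). The gap was 0.025 to untreated replicate 1 and 0.49 to replicate 2. Another EIF4E2 probe set went the other way: it read 5.74 and 5.70 untreated, and 6.64 and 6.59 under YM155, higher by 0.90 ± 0.13 (limma unadjusted p = 0.0013, adjusted p = 0.242 over all probe sets). This was the smallest p of any member probe set. EIF4E3 read 5.79 and 5.43 against 5.31 and 5.35, at −0.28 ± 0.17 (−0.46 and −0.095 against untreated replicates 1 and 2), and its other probe set above the filter gave 0.31. The exon junction helicase EIF4A3 (0.14), EIF4H (−0.099) and EIF4ENIF1 (0.24), which carries eIF4E into the nucleus, overlapped. The helicase genes of eIF4A proper could not be followed under their own names. The only probe set annotated with EIF4A2 alone lay below the filter, at 2.32 and 2.11 untreated, and 1.89 and 2.09 under YM155, and EIF4A1 had none. Bright probe sets that list EIF4A1 with several small nucleolar RNA genes gave 0.025 and 0.0014, and one that lists EIF4A2 in that way gave −0.28, from untreated replicate 2 at 12.44 against 11.86 to 11.89 on the other arrays. Over the 9 genes tested the median was 0.14. It was 0.0060 without untreated replicate 1 and −0.023 without untreated replicate 2.

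The 2 genes of 4E-binding proteins that could be tested lay on opposite sides. EIF4EBP1 read 10.42 and 10.15 in untreated and 9.98 on both YM155 arrays. It was lower without overlap by 0.30 on the log2 scale (SE 0.15, limma adjusted p = 0.494), and by 0.44 and 0.17 against untreated replicates 1 and 2. EIF4EBP2 read 7.66 and 7.65 untreated, and 7.88 and 7.94 under YM155. It was higher without overlap by 0.26 ± 0.12 (adjusted p = 0.485), and its untreated arrays gave nearly the same value. Further EIF4EBP2 probe sets gave 0.35, 0.28 and 0.016. EIF4EBP3 has no probe set of its own, since the one that lists it also lists ANKHD1, and that one read 6.64 and 5.48 untreated, and 5.80 and 5.62 under YM155.

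**Figure D3:**
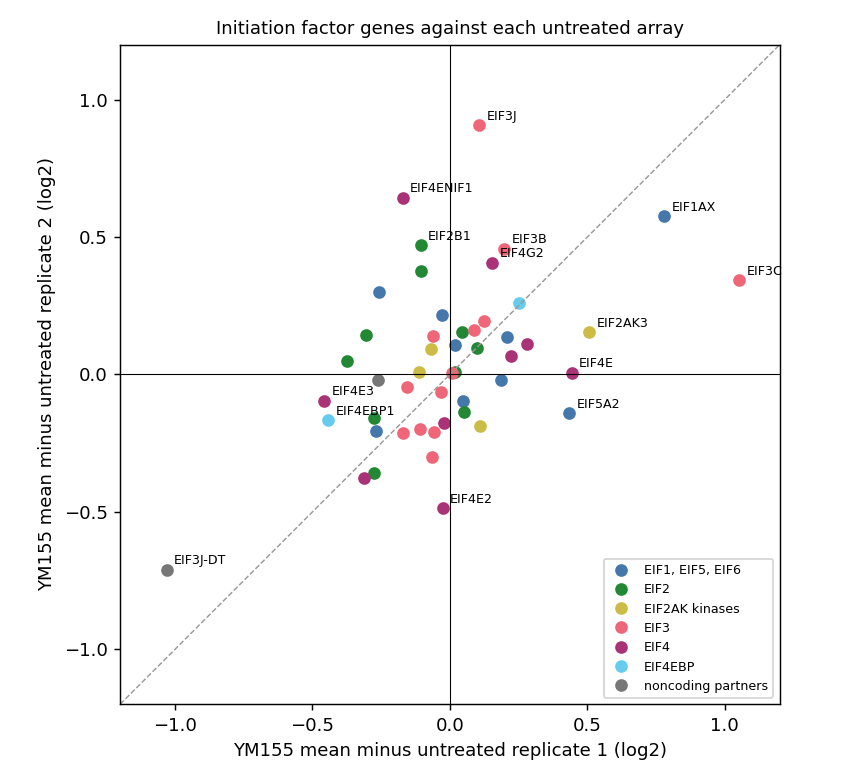
Mean of the YM155 arrays minus untreated replicate 1 (x axis) and minus untreated replicate 2 (y axis), log2, for 49 initiation factor genes; on the dashed line both untreated arrays give the same value. EIF1AX and EIF3J-DT are far from 0 on both axes, whereas EIF3J and EIF4ENIF1 are so only against replicate 2, and EIF4E and EIF5A2 only against replicate 1.

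Among the dimmer probe sets of these genes 46 of 64 had positive differences (71.9%, all genes 47.2%), and among the brightest ones 27 of 49 (55.1%, all genes 47.1%). In the fit over every probe set, 0 of 113 member probe sets passed an adjusted p of 0.05 (limma; background 0% of 32768, smallest member adjusted p 0.242), and 15 had an unadjusted p under 0.05 where the background was 11.1%. Both YM155 arrays lay above both untreated arrays at 40 (background 19.4%) and below them at 16 (background 23.9%), together 49.6% where the background was 43.3%. Of those 15, 14 were higher after YM155 and 1, EIF3J-DT, lower. Only the brightest probe sets of EIF1AX and EIF3J-DT were among them. The other 13 were dimmer probe sets of 9 genes, 13 of 64 such probe sets or 20.3%, all higher, where the same share over all genes was 11.0% in either direction and 5.43% higher. Probe sets of a gene may read the same transcript, so the 13 cannot be taken as independent, and the share was not tested. By gene they belong to EIF1, EIF1AX, EIF2S1, EIF3A, EIF3J, EIF3K, EIF3M, EIF4E2 and EIF5B. Among these, EIF1AX alone was also at an unadjusted p under 0.05 in its brightest probe set.

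EIF3M and EIF1 show the pattern. The brightest EIF3M probe set read 11.37 and 11.30 untreated, and 11.43 and 11.56 under YM155. A dim one read 4.37 and 4.49 against 5.23 and 5.71, a difference of 1.04 ± 0.21 (SE; limma unadjusted p = 0.00479, adjusted p = 0.295), and another read 5.28 and 5.54 against 6.01 and 6.34. For EIF1, 2 dim probe sets were at 0.66 and 0.65, 3 others at 0.21 to 0.27, the brightest at 0.094 and the dimmest at −0.23. For EIF3A, one probe set read 9.91 and 9.75 untreated, and 10.35 and 10.56 under YM155 (0.62 ± 0.16), while the brightest gave 0.12 and the third −0.13. For these genes a level of the gene as a whole cannot be read from 1 probe set. Over the 30 members with 2 or more probe sets above the filter, the dimmest was higher than the brightest in difference for 21, or 70.0%, and over all 6978 such genes for 49.9%. The median of dimmest minus brightest over all 30 was 0.12.

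**Figure D4:**
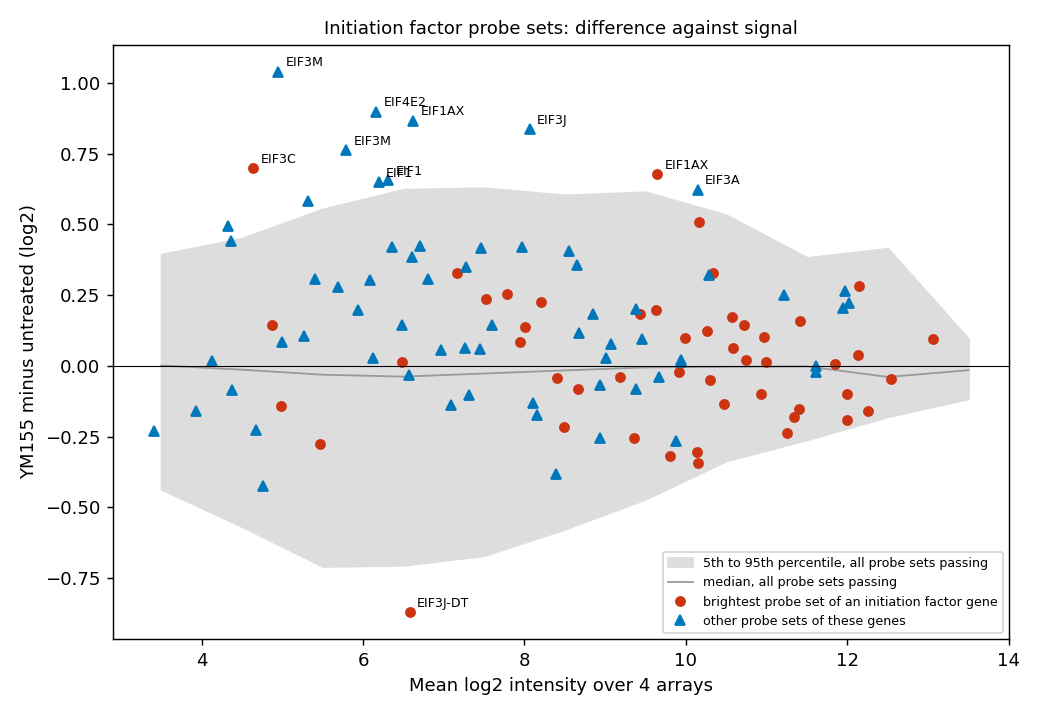
Difference of initiation factor probe sets (YM155 minus untreated, log2, y axis) against their mean log2 intensity over 4 arrays (x axis); red circles are the brightest probe set of a gene, blue triangles its others, and the grey band runs from the 5th to the 95th percentile of all 32768 probe sets. Above 0.6 log2 the points are mostly triangles, and below −0.6 only EIF3J-DT is seen.

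**Figure D5:**
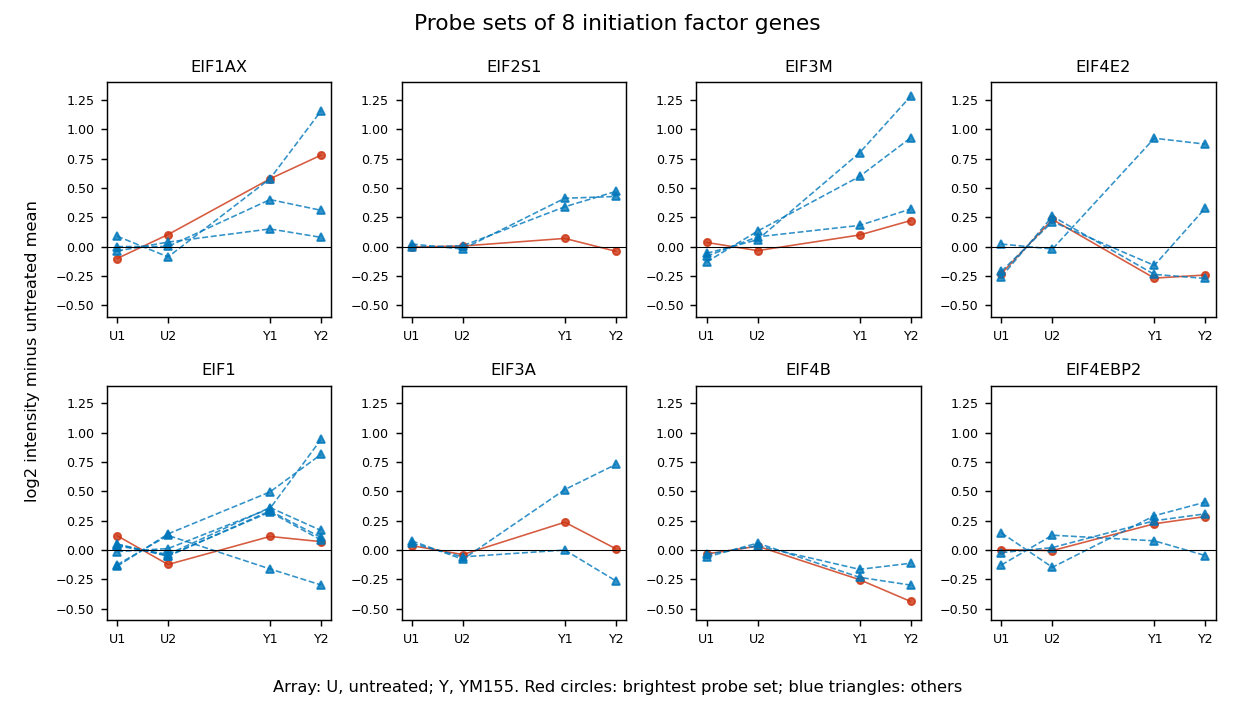
Log2 intensity minus the untreated mean (y axis) on each array (x axis; U, untreated; Y, YM155) for every probe set above the filter of 8 genes; lines only join the points of 1 probe set, red circles mark the brightest. In EIF2S1, EIF3M, EIF4E2 and EIF3A some dimmer probe sets stand above the brightest on the YM155 arrays, whereas all probe sets of EIF4B lie below 0 on the YM155 arrays.

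Many mRNAs of the translation machinery begin with a run of pyrimidines at their first base, the TOP motif, through which mTORC1 controls their translation. A run of at least 8 pyrimidines that begins with C within 5 bases of the RefSeq start was found in 7 of the 39 members with a promoter entry (17.9%) and in 6.73% of all 27305 genes in that table. Only in EIF2A did the run begin at the annotated first base. In the others it began 1 to 5 bases before, so these runs are not shown to be TOP motifs. The bases around these starts are shown to let the runs be compared, from 10 bases before the start (GRCh38.p14). Capitals mark each run from its C, and any pyrimidines just before that C stay in small letters.
EIF2A: cgagcggtttCTCTTTCCgggacaacatgg
EIF2D: ccagccgggCCCTTTTCgcggccgggcccc
EIF2S3: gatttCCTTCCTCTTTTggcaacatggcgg
EIF3D: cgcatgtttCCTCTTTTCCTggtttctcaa
EIF3F: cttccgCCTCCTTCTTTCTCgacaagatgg
EIF3K: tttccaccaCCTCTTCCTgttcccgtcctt
EIF3M: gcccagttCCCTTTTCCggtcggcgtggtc

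These 7 genes differed by −0.15 (EIF3D) to 0.16 (EIF3M) in their brightest probe sets, with a median of 0.0060. The other motifs were searched on both strands of the window from 250 bases before to 50 after the start, where matches to different motifs may overlap. The GC box GGGCGG was found in 29 of 39 members (74.4%) and in 48.3% of all genes in the table. The E-box CACGTG was found in 11 (28.2%, all genes 8.77%) and the ETS core CCGGAAG in 12 (30.8%, all genes 12.2%). The members here are tested protein-coding genes, whereas the table also holds noncoding genes and genes not tested. The shares of all motifs, the pyrimidine run included, thus compare unlike sets, and their differences were not tested. The ATF4 composite element TGATGNAA was found in 1 member, EIF4E3, and in 4.46% of all genes. The median difference of the members with a match was 0.012 for the GC box, −0.023 for the E-box and 0.092 for the ETS core. The stretch between EIF3J and EIF3J-DT holds 4 GC boxes and none of the other motifs. It is 74.9% G and C, and such composition alone raises the number of matches.

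Genes that act with the initiation factors were taken as lists, and 0 of their members passed the adjusted threshold in limma. Partners of initiation, such as poly(A)-binding proteins and their regulators, had 14 positive and 5 negative differences over 19 genes, with a median of 0.10 and 2 genes at an unadjusted p under 0.05. That share, like the 2 of 14 and 2 of 23 in the lists that follow, stands beside 12.7% of all genes and shows nothing particular to the lists. PAIP1, which links the poly(A)-binding protein to eIF3 and eIF4A, read 8.39 and 7.97 untreated, and 8.77 and 8.92 under YM155, higher by 0.66 ± 0.19 (SE; adjusted p = 0.301). DDX3X, a helicase that helps scanning of structured leaders, was at 0.49 ± 0.14 (adjusted p = 0.299), LARP4 at 0.34 ± 0.20 and PAIP2B at −0.35 ± 0.18. All 4 were without overlap, as were 52.6% of this list and 44.9% of all genes. In the lists that follow, 42.9% (eIF2 regulators), 47.8% (mTORC1) and 58.3% (elongation and termination) were without overlap. These shares were not tested. LARP4 was 0.11 and 0.58 against untreated replicates 1 and 2, and PAIP2B was −0.15 without YM155 replicate 2.

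The next list held genes of the eIF2 phosphatase together with other regulators of eIF2 and its kinases. Its 14 tested genes had a median of −0.016, with 6 positive and 8 negative and 2 at an unadjusted p under 0.05. The largest differences were nevertheless positive. PPP1R15A, the stress-induced subunit that directs protein phosphatase 1 to eIF2, read 8.43 and 9.06 untreated, and 9.70 and 9.42 under YM155, higher without overlap by 0.81 ± 0.26 (SE; limma adjusted p = 0.327), or 1.13 and 0.50 against untreated replicates 1 and 2. The catalytic subunit gene PPP1CB was at 0.62 ± 0.21 (adjusted p = 0.346) and DNAJC3, an inhibitor of eIF2 kinases, at 0.46 ± 0.19, both without overlap. DNAJC3 was 0.24 and 0.68 against untreated replicates 1 and 2, and PPP1CB was 0.38 without YM155 replicate 2. IMPACT, which restrains GCN2, was at 0.39 ± 0.26 with overlap, and at 0.085 and 0.70 against the 2 untreated arrays.

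In the list of mTORC1 and the 4E-BP axis, 12 of 23 genes were positive and 11 negative, with a median of 0.0056 and 2 at an unadjusted p under 0.05. DDIT4, which restrains mTORC1, read 11.74 and 12.06 untreated, and 9.64 and 9.11 under YM155 (−2.52 ± 0.23 SE, adjusted p = 0.163), and TBC1D7, a subunit of the TSC complex, was at −0.52 ± 0.26, both without overlap. TBC1D7 was −0.18 against untreated replicate 1 and −0.86 against replicate 2. TSC1 (0.50 ± 0.46) and RPTOR (0.49 ± 0.35) overlapped, and without untreated replicate 2 they gave −0.18 and −0.0023. Elongation and termination genes had 5 positive and 7 negative differences over 12 genes, a median of −0.031 and 0 genes at an unadjusted p under 0.05. HBS1L (−0.47 ± 0.28) and EEF1A2 (−0.31 ± 0.13) were lower and the release factor gene ETF1 (0.31 ± 0.21) higher without overlap, and EEF2K (−0.28 ± 0.24) overlapped. Against untreated replicates 1 and 2, HBS1L was −0.10 and −0.84, ETF1 0.049 and 0.58, and EEF2K −0.60 and 0.036. In these bulk RNA arrays, fewer cells that express a gene and less RNA per cell cannot be told apart.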

How the data were processed

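The deposited values are linear intensities, from 2.42 to 15214. The submitters' processing notes name RMA, which corrects, normalizes and summarizes the probes of a set, and its version is not given in the sources used here. Log2 was taken. RMA sets arrays to a common distribution, so each difference is relative to the other transcripts. The filter kept the 32768 probe sets with a mean log2 of at least 3.32, the 40th percentile, and the brightest probe set stood for each of 14043 genes. Of 54675 probe sets, 62 controls were left out. Symbols came from the platform annotation, which gave 41091 probe sets 1 symbol, 1801 several and 11721 none, and all 53 member genes matched RefSeq by gene ID. YM155 and untreated were compared with limma 3.58.1 in R 4.3.3 (two-sided, group as the only term, Benjamini-Hochberg over all genes or all probe sets, threshold 0.05). An exact permutation test of 2 against 2 arrays cannot go below p = 0.333 and was not used. The number of arrays limits the precision: on simulated data for YM155 against untreated (14043 genes), limma recovered 6 of 100 genes set 1 log2 apart, 84 of 100 set 2 log2 apart, and made 4 false calls. Members and lists were chosen with earlier results of these data known. Arrays of each value are always given in the order untreated replicate 1 and 2, YM155 replicate 1 and 2. Genes given array by array are key members set by rule and the 12 largest without overlap of the groups; of each pathway list the 4 largest were named. Other genes and probe sets given array by array were chosen after their values were seen. Alternatives changed the filter, the choice of probe set, the scaling, the variance model, the block and the arrays included.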

Additional observations from a re-analysis of the deposited data

How the results depend on the processing

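The alternatives dropped the filter or set it at the 60th percentile, averaged all probe sets of each gene, used unsuffixed probe sets alone, repeated quantile normalization, centred arrays on their medians, ran eBayes with trend and robust, added a replicate block, or left out single arrays. In all that kept the 4 arrays, 0 genes of the whole table, 0 member genes and 0 member probe sets passed. Same-numbered arrays did not deviate together (correlation 0.00036), and the replicate block gave 0 calls. Leaving out single arrays called 0 to 1125 genes and 0 to 2 member genes, the upper values without untreated replicate 1, and 0 member probe sets. Of 155 gene values under alternatives that kept all arrays, 150 kept their direction and 5 changed it: with the mean of the probe sets EIF2AK1 gave 0.0026, EIF2AK2 0.041, EIF4E3 0.016 and EIF4E2 0.12, and without suffixed probe sets EIF4E2 gave 0.90, all because other probe sets then enter. Over the arrays left out, EIF2S1 ran from −0.040 to 0.069, EIF2AK1 from −0.11 to 0.010, EIF2AK2 from −0.19 to 0.12, EIF2AK4 from −0.082 to 0.11 and EIF5A from −0.56 to 0.092. Of 48 group medians, 45 moved by less than the spread between replicates; that of EIF1, EIF5 and EIF6 became 0.15 with the mean of the probe sets, 0.11 without suffixed ones and 0.10 after quantile normalization, and with single arrays omitted lay between 0.049 and 0.11. The scalings moved the median of all genes by under 0.1 log2.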
